A study of Mus musculus with 8 samples.

Results

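Mitochondrial carriers are the membrane proteins that move metabolites between the cytosol and the mitochondrial matrix, and the uncoupling proteins are the branch of that family that lets protons leak back across the inner membrane. The genes described here are all those whose symbol on the array starts with Slc25a, together with Ucp1, Ucp2 and Ucp3. They were chosen by name, with no measured value, and where a gene had several probe sets the one of highest mean signal was read. This gave 48 genes of the 19938 tested. Ucp2 and the pseudogene Slc25a5-ps, which also meet the rule, were not analysed here.

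The RNA came from gastrocnemius, a mixed calf muscle, of mice aged 30 weeks. The 4 arrays labelled HADAC5 KO (spelled so) are called knockout and the 4 labelled HDAC5 WT, from wild type littermates, are called wild type. Both genotypes had free access to chow with 9% fat and no further treatment, and the labels leave strain, sex and feeding state at collection unstated. The labels name no Cre line or tissue restriction for the deletion. They number the samples without saying that each is a separate animal, so p-values measure the spread between samples, which may be technical. HDAC5, one of the class IIa histone deacetylases, represses MEF2 transcription factors, and the submitters asked what it does to interleukin 6 and to genes that this cytokine regulates.

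As background, carriers share one fold of paired transmembrane helices and differ in cargo. In muscle, the adenine nucleotide and phosphate carriers supply the ATP synthase and export its product, the aspartate and oxoglutarate carriers form the malate-aspartate shuttle that brings cytosolic reducing power into the matrix, and the carnitine-acylcarnitine carrier admits fatty acids for oxidation. Ucp3 is the uncoupling protein of skeletal muscle, and its transcript is known to respond to fatty acids through the nuclear receptors called PPARs. Muscle cell identity was as labelled: all 10 fibre markers, among them Acta1, Ckm and Myh4, were well above background, with a list mean of 14.21 to 14.27 on the log2 scale across the arrays.

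In the knockout Hdac5 was lower on every array (8.31 to 8.39 against 9.76 to 9.94 in wild type). It fell by 1.5 on the log2 scale (SE 0.059, limma adjusted p = 1.74e-07, exact permutation p = 0.0286, the smallest that 4 against 4 arrays can give). The medians of the arrays lay between 7.69 and 7.77. Over all genes tested, 13 changed at an adjusted p under 0.05, which is 0.0652%.

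The 250 bases before the RefSeq start of the 3 carriers whose difference had the smallest p-values are shown first, on assembly GRCm38.p6, each read 5′ to 3′ on the gene's own strand. Capitals mark matches, on either strand, to CANNTG, the E-box bound by muscle and other helix-loop-helix factors, and to AGGTCA, the hexamer recognised by nuclear receptors such as the PPARs.
Ucp3, chr7:100472741-100472990, plus strand: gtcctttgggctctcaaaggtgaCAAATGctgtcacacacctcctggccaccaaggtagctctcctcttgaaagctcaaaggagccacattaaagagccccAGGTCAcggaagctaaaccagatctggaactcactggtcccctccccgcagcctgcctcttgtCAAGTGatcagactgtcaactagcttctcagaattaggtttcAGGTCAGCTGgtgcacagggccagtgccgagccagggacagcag
Slc25a36, chr9:97111042-97111291, minus strand: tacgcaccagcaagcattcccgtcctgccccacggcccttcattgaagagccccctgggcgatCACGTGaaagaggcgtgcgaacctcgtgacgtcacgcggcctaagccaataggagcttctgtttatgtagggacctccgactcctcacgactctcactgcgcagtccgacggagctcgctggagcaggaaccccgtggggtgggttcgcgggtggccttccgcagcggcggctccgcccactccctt
Slc25a33, chr4:149774268-149774517, minus strand: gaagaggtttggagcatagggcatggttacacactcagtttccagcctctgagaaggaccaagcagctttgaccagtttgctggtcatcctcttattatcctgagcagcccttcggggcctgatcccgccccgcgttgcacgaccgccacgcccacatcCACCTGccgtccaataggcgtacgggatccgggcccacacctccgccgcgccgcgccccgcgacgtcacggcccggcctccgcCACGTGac

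The Ucp3 window held 3 E-boxes and 2 hexamers, and the last of each overlap. The Slc25a36 window held 1 E-box and the Slc25a33 window 2, with 0 hexamers in either. Windows were found for 38 of the 48 genes, 48 windows in all. An E-box stood in 70.8% of them against 66.2% of all 32851 windows in the table, and AGGTCA in 12.5% against 14.0%. The MEF2 motif was in 0 of the 48 windows and in 2.92% of all windows, and the letters TATAAA were in 4.17% against 12.4%. The median GC content was 57.4% in these windows and 52.4% over all, with 54.8% in Ucp3 and 64.4% in each of the other two printed. These are letter matches in a short window and say nothing about binding.

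None of the 48 genes changed in limma at an adjusted p under 0.05 (0 of 48). At an unadjusted p under 0.05, 3 of 48 (6.25%) passed, 2 higher and 1 lower in the knockout, where 7.90% of all genes did (4.72% higher and 3.18% lower). The genotypes did not overlap in 2 of 48 genes (4.17%), against 4.90% of all genes. Both shares lay near or below the background. The means were higher in the knockout for 24 genes and lower for 24. The median difference was -0.0015 on the log2 scale, beside 0.0030 over all genes.

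The precision of this result can be read from the intervals. For 31 of the 48 genes (64.6%) the 95% interval of the difference lay wholly between -0.25 and 0.25 on the log2 scale, that is within 1.19-fold either way, beside 65.9% of all genes. The median SD within a genotype was 0.0979 for these genes and 0.101 over all genes. In data simulated with the spread of these arrays, 200 genes were changed by 0.5 or 1. The test recovered 81.6% of the changes of 0.5 and 98.7% of those of 1. In the real data only 13 genes passed, which makes the adjusted threshold stricter. These rates therefore do not carry over to the 48 genes. The mean of the 48 genes was 9.10 to 9.14 on the knockout arrays and 9.06 to 9.13 on the wild type arrays, and wild type array 4 was the lowest array for 13 genes. Over all probe sets that array also had the lowest upper quartile (9.24) and the highest lower quartile (6.55). The mean over all genes tested was 8.23 on that array, 8.22 to 8.25 on the knockout arrays and 8.22 to 8.23 on the wild type arrays. Why these genes read low on it was not tested.

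**Figure D1:**
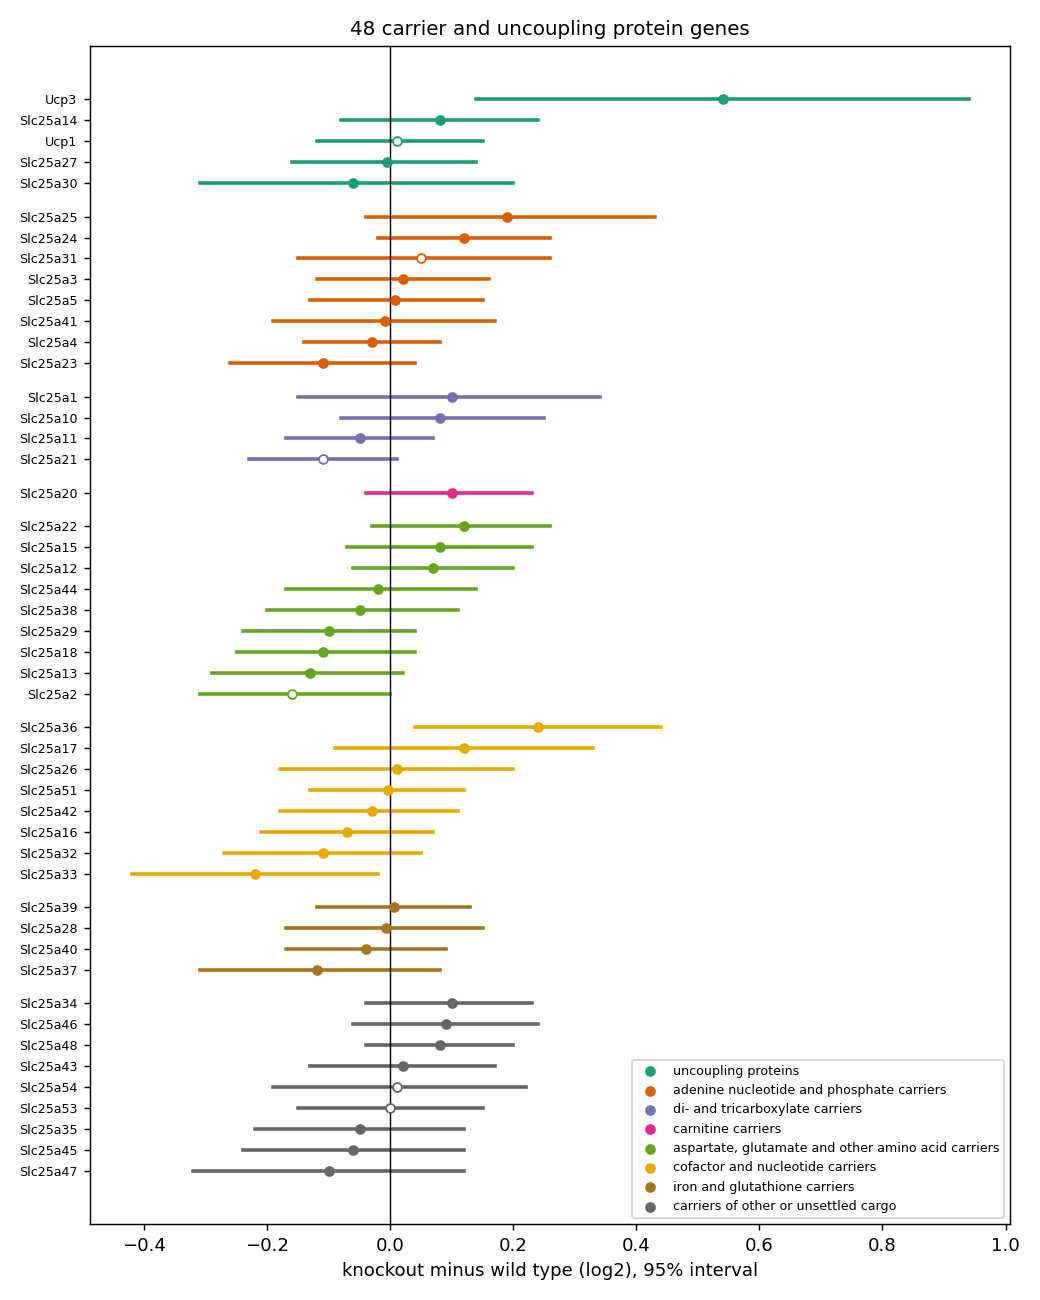
Difference between genotypes (knockout minus wild type, log2) of each of the 48 genes, with limma's 95% interval as the line, coloured and grouped by cargo; open circles are genes near background. The intervals of Ucp3 and Slc25a36 lie above 0 and that of Slc25a33 below it, and 24 of the points lie on each side.

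Ucp3 showed the widest difference of the family and the widest spread. Its log2 signal was 12.09, 11.88, 11.59 and 10.98 on knockout arrays 1 to 4 and 11.01, 11.24, 11.16 and 10.98 on wild type arrays 1 to 4. Knockout arrays 1, 2 and 3 lay above every wild type array, and knockout array 4 lay among the wild type. The difference was 0.54 (SE 0.184), or 1.45-fold with a 95% interval of 1.10 to 1.92. It did not pass over all genes (limma unadjusted p = 0.0129, adjusted p = 0.461), and the exact permutation p was 0.114. Without knockout array 4 the difference was 0.76 and passed, with an adjusted p of 0.034, while over the 16 alternatives the adjusted p ran from 0.034 to 0.80. The SD of Ucp3 was 0.48 in the knockout and 0.13 in wild type (n = 4 each), and its spread within genotypes of 0.352 compares with 0.213 for Slc25a30, the next.

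None of the other measured uncoupling proteins passed either. Ucp1, the thermogenic protein of brown fat, read 6.65, 6.57, 6.53 and 6.59 in the knockout and 6.57, 6.60, 6.46 and 6.67 in wild type. These values are under 7.15, the 95th percentile of 1027 olfactory receptor genes, a family silent in muscle, which is used here as the level of background. Slc25a14 differed by 0.08 (SE 0.074) and Slc25a27 by -0.0060 (SE 0.069), both relatives of the uncoupling proteins best known from brain. Slc25a30, a kidney-rich relative, differed by -0.06 (SE 0.118), and knockout array 2, at 9.56, was its highest array.

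**Figure D2:**
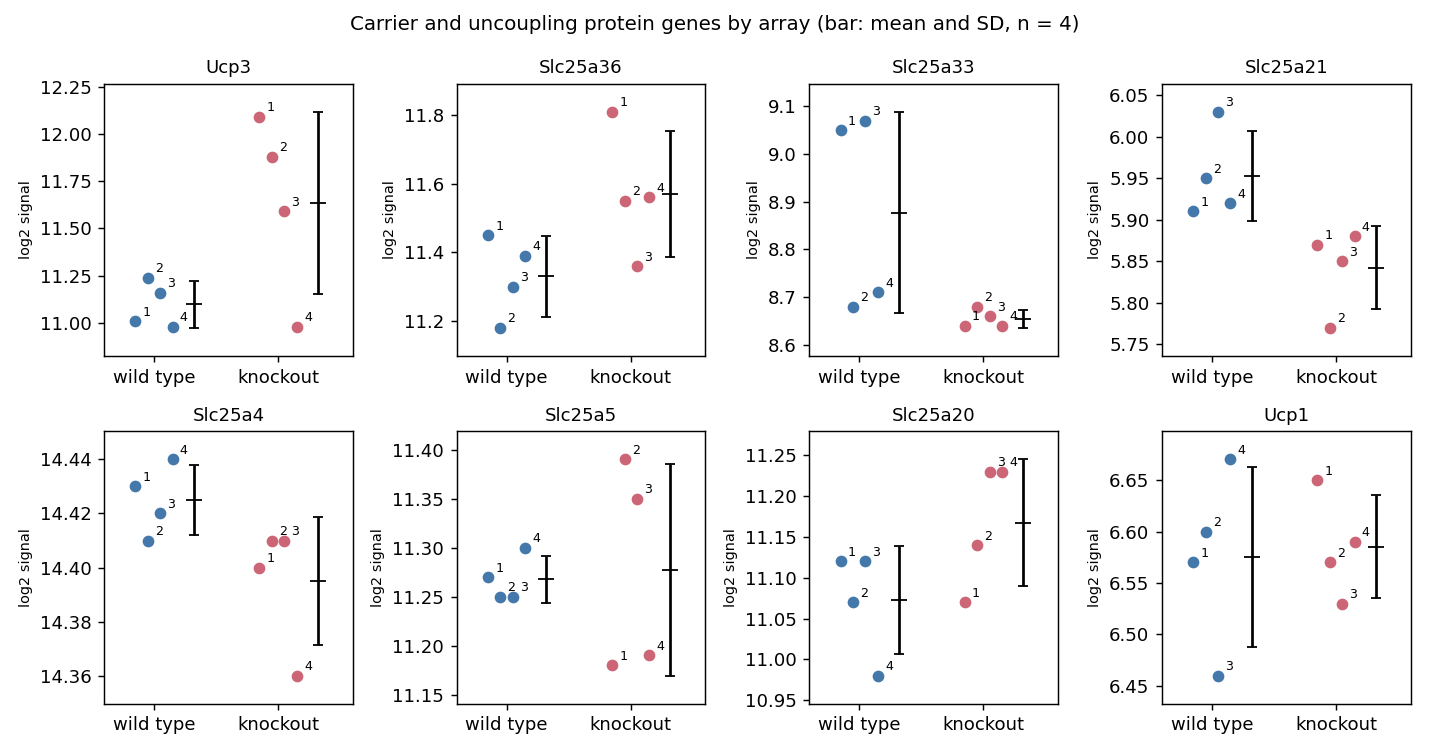
Log2 signal of 8 of the genes on each array, wild type in blue and knockout in red, numbered as in the labels; the bar beside each group is the mean and SD (n = 4), and each panel has its own scale. For Ucp3, knockout arrays 1 to 3 sit above all wild type arrays and knockout array 4 does not; for Slc25a21 and, only just, Slc25a33 the genotypes do not overlap.

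The adenine nucleotide and phosphate carriers, some of which serve the ATP synthase, did not pass in either direction, and 4 of their 8 intervals lay within 0.25 either way. Slc25a4, the adenine nucleotide translocator of heart and muscle, read 14.40, 14.41, 14.41 and 14.36 in the knockout and 14.43, 14.41, 14.42 and 14.44 in wild type (difference -0.03, SE 0.051). The array maxima were 14.80 to 14.84, so this gene read near the top of the scale, where a change can be compressed. Slc25a5, the translocator of dividing and most other cells, read 11.18, 11.39, 11.35 and 11.19 against 11.27, 11.25, 11.25 and 11.30. Its difference was 0.0073 (SE 0.064), and its sign turned under quantile normalization (-0.0011). Its 2 other probe sets gave 0.02 each. A pseudogene, Slc25a5-ps, exists, and signal from near-identical copies cannot be separated.

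Slc25a3, the phosphate carrier, read 12.37, 12.37, 12.34 and 12.19 in the knockout and 12.36, 12.21, 12.33 and 12.27 in wild type. The difference of 0.02 (SE 0.063) was smaller than its SD in either genotype (0.087 and 0.068). Slc25a31, the translocator of sperm, lay near background at 5.10 and 5.05. The ATP-magnesium carriers went both ways without passing. Slc25a25 differed by 0.19 (SE 0.107), Slc25a24 by 0.12 (SE 0.065), Slc25a23 by -0.11 (SE 0.067) and Slc25a41 by -0.0091 (SE 0.084). Of the 8 genes in this group, 5 had a higher mean and 3 a lower one, and 0 had an unadjusted p under 0.05 in limma.

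The carrier genes of the malate-aspartate shuttle did not pass in either direction. Slc25a12, the calcium-stimulated aspartate-glutamate carrier of muscle and brain, read 13.88, 13.77, 13.84 and 13.71 in the knockout and 13.76, 13.67, 13.80 and 13.71 in wild type. The difference was 0.07 (SE 0.060, 95% interval -0.06 to 0.20). Slc25a13, its liver counterpart, differed by -0.13 (SE 0.073), and Slc25a11, the oxoglutarate carrier, by -0.05 (SE 0.054). The genotypes overlapped in all 3.

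Slc25a20, the carnitine-acylcarnitine carrier, read 11.07, 11.14, 11.23 and 11.23 in the knockout and 11.12, 11.07, 11.12 and 10.98 in wild type. The 3 highest arrays were knockout, but knockout array 1 lay among the wild type. The difference was 0.10 (SE 0.062, limma adjusted p = 0.768), within 0.973 to 1.17-fold.

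Among the other di- and tricarboxylate carriers, Slc25a1, which exports citrate for fatty acid synthesis, read 8.98, 8.71, 8.94 and 8.78 in the knockout and 8.87, 9.05, 8.52 and 8.58 in wild type (difference 0.10, SE 0.111). In wild type its order over the arrays was that of the white adipocyte list (9.82, 10.43, 9.07 and 9.72 on arrays 1 to 4), while in the knockout the orders differed (9.66, 9.70, 9.94 and 9.77). The adipokine Adipoq ran from 6.88 to 10.15 over the wild type arrays and from 8.70 to 9.38 over the knockout arrays, and 0 of 9 adipocyte markers had an unadjusted p under 0.05 in limma. The part of fat cells in the carrier signals was not tested. Slc25a10, the dicarboxylate carrier, differed by 0.08 (SE 0.077).

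Slc25a21, the oxodicarboxylate carrier of lysine and tryptophan breakdown, was one of the genes whose genotypes did not overlap. It read 5.87, 5.77, 5.85 and 5.88 in the knockout and 5.91, 5.95, 6.03 and 5.92 in wild type, all under the background level of 7.15. The difference was -0.11 (SE 0.056, limma unadjusted p = 0.0761, adjusted p = 0.682).

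Of the 9 amino acid carriers, 6 had a lower and 3 a higher mean in the knockout, and 0 had an unadjusted p under 0.05 in limma. Over all 19938 genes tested, 9694 means were lower and 10244 higher. Slc25a2, an ornithine carrier near background, came closest at -0.16 (SE 0.071, unadjusted p = 0.0502). The glutamate carriers Slc25a22 and Slc25a18 differed by 0.12 (SE 0.067) and -0.11 (SE 0.068). Slc25a15, the main ornithine carrier of the urea cycle, differed by 0.08, and Slc25a29, a carrier of basic amino acids, by -0.10. Slc25a38, the glycine carrier needed for haem synthesis, differed by -0.05, and Slc25a44, a carrier of branched-chain amino acids, by -0.02. Their standard errors lay between 0.064 and 0.073.

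The cofactor and nucleotide carriers held the other members with an unadjusted p under 0.05, and these went in opposite directions. Slc25a36, a pyrimidine nucleotide carrier, read 11.81, 11.55, 11.36 and 11.56 in the knockout and 11.45, 11.18, 11.30 and 11.39 in wild type. Knockout arrays 1, 2 and 4 lay above every wild type array, and knockout array 3 did not. The difference was 0.24 (SE 0.093), 1.18-fold (95% interval 1.03 to 1.36, limma unadjusted p = 0.0223, adjusted p = 0.510), and a further probe set gave 0.27.

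Slc25a33, the other pyrimidine nucleotide carrier, read 8.64, 8.68, 8.66 and 8.64 in the knockout and 9.05, 8.68, 9.07 and 8.71 in wild type. The knockout arrays were tightly grouped (SD 0.018) and the wild type arrays fell into a high pair, 1 and 3, and a low pair, 2 and 4 (SD 0.21). The genotypes did not overlap, but only just: the highest knockout array read 8.676 and the lowest wild type array 8.677. The difference was -0.22 (SE 0.090, limma unadjusted p = 0.0309, adjusted p = 0.561).

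The rest of this group differed by less. Slc25a17, the peroxisomal carrier of coenzyme A and adenine nucleotides, differed by 0.12 (SE 0.097), and Slc25a32, which brings folate and flavin into mitochondria, by -0.11 (SE 0.073). Slc25a16 and Slc25a42, linked to coenzyme A, differed by -0.07 and -0.03, Slc25a26, the S-adenosylmethionine carrier, by 0.01, and Slc25a51, the NAD carrier, by -0.0031. The genotypes overlapped in all 6.

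None of the 4 iron and glutathione carriers passed. The mitoferrins Slc25a37 and Slc25a28, which feed iron to haem and iron-sulphur cluster synthesis, differed by -0.12 (SE 0.089) and -0.0069 (SE 0.073). The glutathione carriers Slc25a39 and Slc25a40 differed by 0.0057 (SE 0.058) and -0.04 (SE 0.059). By RefSeq gene order Slc25a39 is the 8th tested gene from Hdac5 on chromosome 11. It read 10.04, 10.05, 10.10 and 9.97 in the knockout and 10.12, 10.03, 9.99 and 9.99 in wild type, so the genotypes overlapped at this neighbour of the targeted gene.

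The 9 carriers of other or unsettled cargo had differences from -0.10 to 0.10 and 0 unadjusted p-values under 0.05 in limma. They include Slc25a46, an outer membrane protein of mitochondrial dynamics, at 0.09 (SE 0.070), Slc25a34 at 0.10, Slc25a48 at 0.08, Slc25a43 at 0.02, Slc25a35 at -0.05, Slc25a45 at -0.06 and the liver carrier Slc25a47 at -0.10. Slc25a53 and Slc25a54 lay near background, as did Ucp1, Slc25a2, Slc25a21 and Slc25a31, 6 of the 48 genes in all.

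Ucp3 was then set beside a list of genes taken to respond to fatty acids or PPARs. The list was chosen with earlier results of these data known, so its counts are a description and no test was made over it. Of 25 measured, 5 had an unadjusted p under 0.05 in limma, all 5 higher (4.72% of all genes were higher at that threshold), and 0 changed after adjustment over all genes. Pdk4, the kinase that shuts off pyruvate dehydrogenase, read 13.97, 13.88, 13.70 and 13.22 in the knockout and 13.13, 13.45, 13.38 and 13.25 in wild type. As for Ucp3, knockout arrays 1 to 3 lay above every wild type array and knockout array 4 lay among them. The difference was 0.39 (SE 0.138, adjusted p = 0.462).

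Angptl4, the secreted inhibitor of lipoprotein lipase, read 8.31, 7.87, 7.93 and 7.68 against 7.64, 7.81, 7.62 and 7.45. Its difference was 0.32 (SE 0.119, limma adjusted p = 0.497), again with knockout array 4 among the wild type. Fbp2, the muscle fructose bisphosphatase, had another order, with 11.35, 10.49, 10.99 and 11.24 against 10.19, 10.41, 10.73 and 10.36 (difference 0.60, SE 0.165, adjusted p = 0.313). Decr1, a reductase for unsaturated fatty acids, did not overlap between genotypes (12.19 to 12.40 against 12.06 to 12.18, difference 0.16, SE 0.061). The fifth was Txnip, a redox protein that restrains glucose uptake. The list's median difference was 0.047, beside 0.0030 over all genes.

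Over the 8 arrays Ucp3 followed Pdk4 more closely than any other of the 19937 genes by Pearson's r. Pearson's r was 0.986 (exact permutation p = 1.49e-04, adjusted p = 0.00372 over the 25 relations computed) and Spearman's rho 0.905 (exact permutation p = 0.00456, adjusted p = 0.0905). Without knockout arrays 1 and 2, the arrays farthest from the median of Ucp3, r was 0.966. With Angptl4, r was 0.892 (exact permutation p = 0.00144, adjusted p = 0.018) and 0.844 without those arrays, and rho was 0.881 (exact permutation p = 0.00724, adjusted p = 0.0905). These were the only 2 of the 25 relations to pass by r, and 0 passed by rho. Over the list r was positive for 14 genes and negative for 11, from Lpl, the lipase that frees fatty acids from lipoproteins, at -0.753 to Pdk4, so the list as a whole did not follow Ucp3. The comparison was added after the values had been seen, so its p-values are descriptive. The permutations moved arrays across genotypes, so a genotype difference shared by 2 genes also enters these p-values. Each genotype alone holds 4 arrays, too few for a correlation within it. With Slc25a20, the carnitine carrier, no such order was seen, since its lowest knockout array was array 1.

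**Figure D3:**
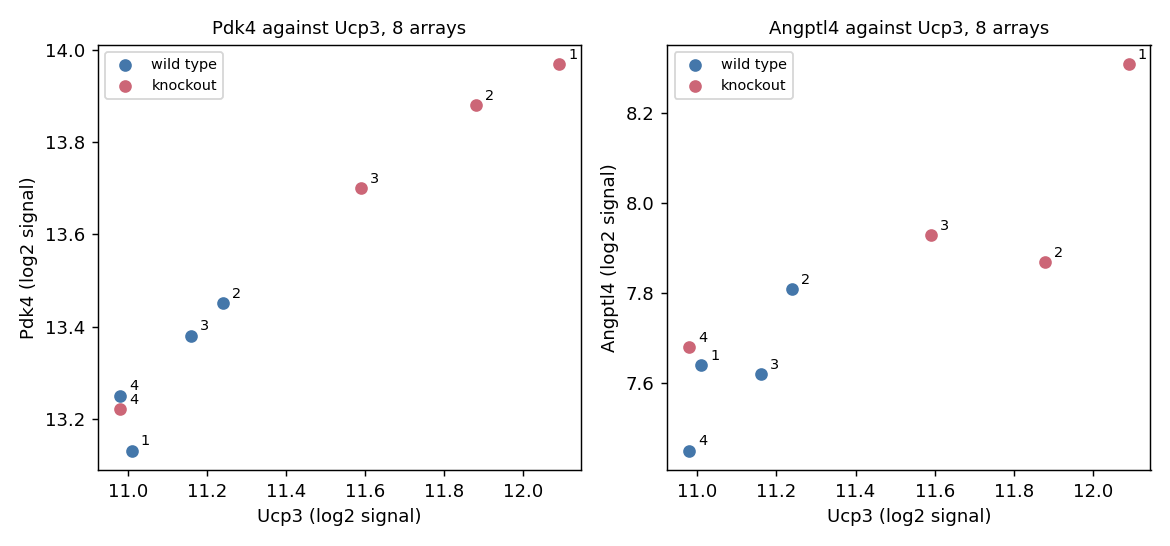
Log2 signal of Pdk4 (left) and Angptl4 (right) against that of Ucp3 on the 8 arrays, wild type in blue and knockout in red, numbered as in the labels. Pdk4 and Ucp3 lie close to a line (r = 0.986) on which knockout arrays 1, 2 and 3 are highest and knockout array 4 falls with the wild type arrays.

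Marker lists of fibre type and of other cells were measured in the same arrays, and some differed between genotypes. The slow fibre list had a mean of 10.82, 11.18, 11.41 and 11.26 on knockout arrays 1 to 4 and of 11.42, 11.77, 11.81 and 11.52 on wild type arrays 1 to 4. Of its 10 markers, 9 were lower and 1 higher (Casq2, by 0.35) at an unadjusted p under 0.05 in limma, 0 after adjustment, and 7 did not overlap between genotypes. Over all genes 3.18% were lower and 4.72% higher at that threshold, and 4.90% did not overlap. Among the knockout arrays, array 1 had the highest Ucp3 and the lowest slow fibre mean. Array 4 had the lowest Ucp3 and array 3 the highest slow fibre mean. The macrophage list, of which 8 of 14 markers were higher at an unadjusted p under 0.05 in limma and 0 after adjustment, ran from 8.45 to 8.75 in the knockout and from 8.20 to 8.51 in wild type. Of 10 fibroblast markers, 4 were higher at that threshold (list mean 10.32 to 10.71 against 10.19 to 10.54). Of 8 brown adipocyte and 10 endothelial markers, 0 had such a p, and 6 of 8 lymphocyte and 6 of 7 hepatocyte markers lay near background. In whole muscle fewer cells of a type and less RNA per cell cannot be told apart, and the part of fibre type or of macrophages in the Ucp3 values was not tested.

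**Figure D4:**
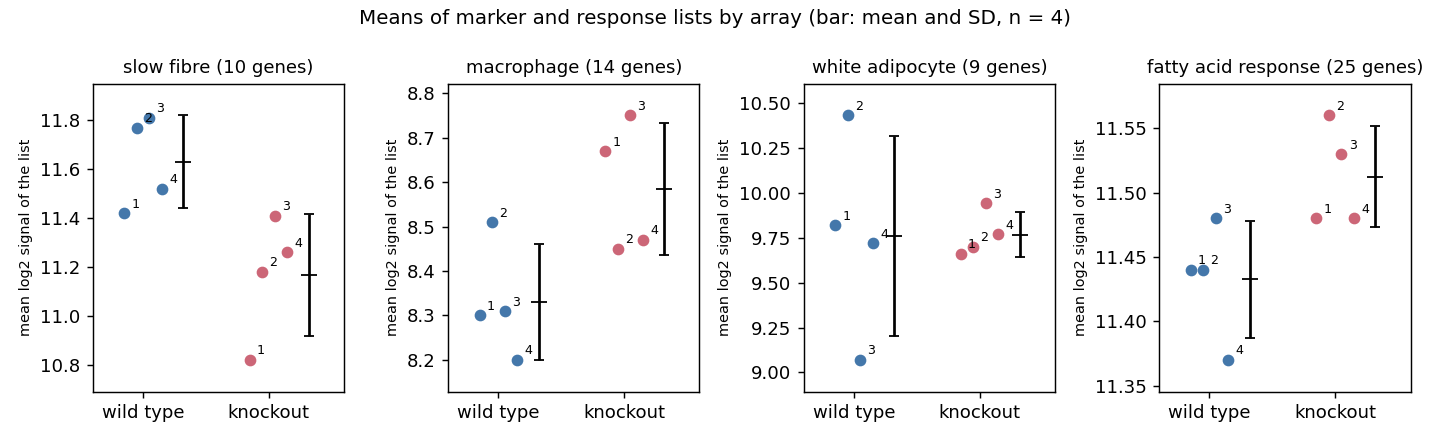
Mean log2 signal of the slow fibre, macrophage, white adipocyte and fatty acid response lists on each array, wild type in blue and knockout in red; the bar is the mean and SD (n = 4), and each panel has its own scale. The slow fibre means of the knockout (10.82 to 11.41) lie below those of wild type (11.42 to 11.81), while the macrophage and adipocyte means overlap.

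Proteins that work around the carriers were read from 3 further lists. Of 24 other mitochondrial transport genes, 0 changed in limma after adjustment and 2 (8.33%, beside 7.90% of all genes) had an unadjusted p under 0.05, both lower in the knockout. Smdt1, the subunit that links the calcium uniporter to its gatekeepers, read 11.66, 11.62, 11.65 and 11.70 against 11.83, 11.89, 11.75 and 11.81, without overlap (difference -0.16, SE 0.055, adjusted p = 0.461). Sfxn2, a sideroflexin of the inner membrane, differed by -0.25 (SE 0.096), Sfxn3 by 0.19 (SE 0.090) and Mcur1, a regulator of calcium uptake, by 0.14 (SE 0.074).

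Of 15 genes for import of carriers into the inner membrane, limma found 0 changed and 1 with an unadjusted p under 0.05 (6.67%, beside 7.90% of all genes). This was Tomm70a, the outer membrane receptor that recognises carrier precursors, at 11.43 to 11.56 in the knockout and 11.21 to 11.45 in wild type (difference 0.14, SE 0.066, unadjusted p = 0.0497). The pore accessories Tomm7, Tomm22 and Tomm6 differed by -0.11, -0.09 and -0.08. Of 16 ATP synthase genes, 0 changed in limma and 1 (6.25%), the small subunit gene Atp5k, had an unadjusted p under 0.05 (difference 0.15, SE 0.067). Atp5g2, which encodes a copy of the rotor ring subunit, differed by -0.17 (SE 0.079), Atp5d by -0.13 and Atp5h by -0.08. The median differences of the 3 lists were 0.0086, -0.0026 and -0.013.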

How the data were processed

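Values were deposited by the authors as log2 signal, 1 per probe set and array, made with Affymetrix Expression Console version 4.0, per the submitters' processing notes. How background was corrected and arrays were normalized: not given in the sources used here. The log2 scale was read from the values. Per the labels, 150 ng of RNA with an integrity number above 8 was amplified for each array.

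The platform annotation paired 21789 of 35556 probe sets with 1 symbol. A further 1621 carried more than 1 and 12146 had no entry, and both kinds were left out. Of the named probe sets, 21698 matched RefSeq (GRCm38.p6) by Entrez identifier and 0 symbols changed. The brightest probe set stood for each of the 999 genes with more than 1. The deposited values were fitted without further normalization in limma 3.58.1 (R 4.3.3; lmFit, eBayes), with genotype as the only term and Benjamini-Hochberg adjustment over 19938 genes. Differences are knockout minus wild type, ± is SD and SE is limma's. Permutation tests were exact and 2-sided over 70 arrangements of the arrays, or over all pairings for correlations. The test was run on 10 sets of simulated data with 200 changed genes, where 3.89% of calls were false. The number of arrays limits the precision of every comparison. Promoter sequences are from RefSeq.

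The members and gene lists were chosen with earlier results of these data known. Values by array are given for Ucp1, Ucp3, Slc25a3, Slc25a4, Slc25a5, Slc25a12, Slc25a20, members with an unadjusted p under 0.05 or without overlap, and, chosen after their values were seen, Slc25a1 and Slc25a39. Up to 4 genes of smallest p per context list are given with their differences. Of these, Pdk4, Angptl4, Fbp2 and Smdt1 are also given by array. Ucp2, and with it the comparison of Ucp3 with Ucp2, was planned and is not analysed here. Alternatives were quantile normalization, median centring, trended and robust eBayes, array weights, leaving out dim genes, averaging probe sets, a replicate block and leaving out arrays.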

Additional observations from a re-analysis of the deposited data

Results flagged for a closer look

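In 7 of 98 groups of 4 arrays (the 48 genes and Hdac5 in each genotype), 1 array stood apart from the other 3 by a gap larger, relative to the group's range, than Dixon's critical value. Chance gives about 1 in 20. In the knockout these were array 4 for Slc25a31 (5.33, others 5.01 to 5.03, near background), for Slc25a45 (8.24, others 8.01 to 8.04) and for Hdac5 (8.39, others 8.31 to 8.32), and array 1 for the glycine carrier Slc25a38 (9.37, others 9.18 to 9.21). In wild type they were array 1 for the glutamate carrier Slc25a18 (7.5, others 7.7 to 7.73) and for Slc25a41 (7.19, others 7.41 to 7.45), and array 3 for the oxoglutarate carrier Slc25a11 (12.82, others 12.75 to 12.76). Knockout array 4, on which Ucp3 and Pdk4 read as in wild type, had the Hdac5 level of a knockout.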

How the results depend on the processing

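Of 286 values recomputed for 18 results under 16 alternatives, 265 counted as unchanged. For a gene this meant the same direction and side of the threshold, and for a count, within 1.5 times. The median difference had to move by less than the larger within-genotype SD of the array medians. Its sign could turn, as from -0.0015 to 0.014 under median centring. The count of all changed genes, 13, was 23 under quantile normalization, 44 with a trended and robust eBayes, 31 with array weights, 37 with dim genes left out, 30 with the replicate block and 5 without both knockout array 1 and wild type array 4 (chosen after the data were seen), and it ran from 5 to 20 with 1 array left out. The cause was not tested. The count of changed carriers was 0 throughout, except that it was 1 (Ucp3) without knockout array 4, so it ran from 0 to 1. The Ucp3 difference ran from 0.39 to 0.76 with 1 array left out. Signs of differences near 0 turned: Slc25a5 was -0.0011 under quantile normalization and ran from -0.03 to 0.04 with 1 array left out, Slc25a3 was -0.0022 without both arrays and ran from -0.0063 to 0.07, and Ucp1 ran from -0.03 to 0.04. Arrays sharing a number deviated from their group means with correlations of 0.338, -0.115, -0.153 and 0.340 for numbers 1 to 4, where the highest with another number was 0.137, 0.204, 0.133 and 0.007. Numbers 1 and 4 thus matched best with themselves and 2 and 3 did not, and the labels name no shared source, so the fit without the block was kept. With the replicate block 0 carriers changed and Ucp3 had an adjusted p of 0.217. Near background, 6 carriers can show only compressed changes.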

Other observations

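After Pdk4, the genes whose log2 signal followed Ucp3 most closely over the 8 arrays were Smarca1 (r = 0.973), a chromatin remodelling ATPase, Bak1 (r = 0.972), a pore-forming protein of apoptosis at the mitochondrial outer membrane, Pdpk1 (r = 0.961), the kinase that activates Akt, and Zfp442 (r = 0.960), a zinc finger gene. This is a ranking of 19937 genes over 8 arrays, chosen after the values were seen, and carries no test. Angptl4 stood at rank 89 and Fbp2 at rank 4389 (r = 0.430).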
